A study of Mus musculus with 36 samples.

Results

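Ptgds, the gene of the lipocalin-type prostaglandin D synthase, was described together with 4 other genes of prostaglandin synthesis in glucocorticoid-treated primary cortical cells. The other 4 were Ptgs1 and Ptgs2, which encode the cyclooxygenases, and Ptges and Ptges2, which encode prostaglandin E synthases. The 5 genes are the rows of the count table whose GENCODE symbol is one of these names, out of 55487 genes, and each name matched 1 row. They were picked with the Ptgds differences between treatments in these libraries already known, so their values by treatment, and the relation of Ptgds to glial transcripts, are given as descriptions with no test.

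The cells were dissociated mouse cortical cells of embryonic day 18 (C57EDCX, bought from BrainBits), with no genetic change named in the labels. After 10 days in culture they were kept for 72 h in fresh growth medium (control), in medium with 1 µM dexamethasone (DEX), a synthetic agonist of the glucocorticoid receptor, or in medium that held the same 1 µM of DEX plus RU-486 (mifepristone), an antagonist of that receptor, also at 1 µM. Treatments were replenished after 48 h. The labels name 2 batches, and each holds 6 RNAseq libraries per treatment, which makes 12 per group and 36 in all. The cells were not sorted, so a library holds RNA of neurons and of every other cell type in the dish, and the number of embryos behind the cells is not given in the sources used here. The methods name 12 experimental replicates of each group. Whether these were separate cultures is not given in the sources used here. The p-values therefore measure the spread between these libraries, which may be technical.

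Libraries held between 12.1 and 82.4 M counts (M, mega). RNA integrity was scored as the RNA integrity number (RIN), which falls as RNA is degraded. In batch 1 the control libraries had 24.2 to 82.4 M counts and RIN between 7.8 and 9.2, the DEX libraries 12.1 to 22.3 M and RIN between 3.9 and 7.8, and those with DEX + RU-486 had 17.4 to 26.7 M and RIN from 5.6 to 7.9. Depth and RNA integrity therefore cannot be told apart from treatment for DEX against control in batch 1. There DEX + RU-486 overlapped with DEX in both, and with control in depth and, between 7.8 and 7.9, in RIN. Batch 2 had 6 libraries with RIN under 3, 2 in each group, and the remaining 12 were at 7.4 or above. Values are given for all libraries and for the 28 of RIN 6 or above, called intact below.

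Prostaglandin synthesis begins when phospholipases release arachidonic acid from membranes. Cyclooxygenases turn it into prostaglandin H2, from which terminal synthases make prostaglandin D2, prostaglandin E2 and related lipids that act on receptors of the cell surface. In brain, Ptgds is known as an abundant transcript of the leptomeninges, the choroid plexus and oligodendrocytes, and its protein is secreted into the cerebrospinal fluid. Glucocorticoids are known to repress Ptgs2 in many tissues.

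Of the 5 genes, 4 lie on mouse chromosome 2 and Ptgs2 lies on chromosome 1 (GRCm38, GENCODE M21). Ptgds (ENSMUSG00000015090) spans chr2:25466709-25470046 on the minus strand, with 1649 bases of merged exons in 7 blocks. Ptgs1 (ENSMUSG00000047250) spans chr2:36230426-36252272 on the plus strand, and 148 of its 3884 exon bases are shared with Gm43621 on the opposite strand. Ptgs2 (ENSMUSG00000032487) spans chr1:150100031-150108227 on the plus strand with 4580 exon bases. Ptges (ENSMUSG00000050737) spans chr2:30889471-30929863 on the minus strand with 3931 exon bases, and the processed pseudogene Gm13400 lies inside it without a shared exon base. Ptges2 (ENSMUSG00000026820) spans chr2:32395896-32405772 on the plus strand with 5058 exon bases. Whether strand was used in counting is not given in the sources used here, so reads of Ptgs1 and of Gm43621 on the shared bases cannot be told apart.

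The promoters of Ptgds and Ptges2 are shown because these were the members with counts in all 36 libraries, and because Ptgds was higher with DEX in the intact libraries and Ptges2 was not. Each run is the 250 bases before the RefSeq start of the gene (GRCm38.p6), at chr2:25469750-25469999 on the minus strand for Ptgds and at chr2:32395640-32395889 on the plus strand for Ptges2, written 5′ to 3′ along the gene. The Ptgds window lies inside the GENCODE span given above, since the RefSeq and GENCODE starts of this gene differ. Capitals mark matches, on either strand, to the glucocorticoid receptor hexamer AGAACA, the AP-1 motif TGANTCA, the E-box CANNTG or the TATA box TATAAA.
Ptgds: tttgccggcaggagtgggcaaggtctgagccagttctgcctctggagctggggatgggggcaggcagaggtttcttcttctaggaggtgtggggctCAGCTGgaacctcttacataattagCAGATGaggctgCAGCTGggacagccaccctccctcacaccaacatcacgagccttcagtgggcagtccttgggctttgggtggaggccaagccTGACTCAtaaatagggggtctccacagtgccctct
Ptges2: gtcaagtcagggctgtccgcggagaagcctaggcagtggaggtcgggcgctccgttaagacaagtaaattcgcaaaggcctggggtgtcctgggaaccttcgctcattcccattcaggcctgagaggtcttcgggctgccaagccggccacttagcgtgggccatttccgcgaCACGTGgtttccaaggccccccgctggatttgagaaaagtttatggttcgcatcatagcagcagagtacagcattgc

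The Ptgds run held an AP-1 match, TGACTCA, that begins 35 bases before the start, and 3 E-boxes that begin 154, 129 and 117 bases before it. The Ptges2 run held 1 E-box, CACGTG, 77 bases before the start. Neither run held AGAACA, whereas the corresponding windows of Ptgs1 and Ptges held 1 match each, 204 and 191 bases before the start, and the one of Ptgs1 overlaps an E-box. None of the 5 windows held TATAAA, the cAMP response element TGACGTCA, or the full palindromic receptor element, in which this hexamer and its reverse complement face each other across 3 bases of any kind. Among 32851 RefSeq promoter windows of this length, 6.75% held TGANTCA, 66.2% held CANNTG, 16.1% held AGAACA, 12.4% held TATAAA, 1.55% held TGACGTCA and 0.00913% held the full element. The Ptges window, like that of Ptgds, lies inside the GENCODE span of its gene. These matches describe the letters of the windows only, and another start of a gene would give another window.

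Per kilobase of merged exon, the mean level over all libraries was highest for Ptges2, at 2.27 CPM (counts-per-million of the library) per kilobase, and next for Ptgds, at 1.50. Ptgs2, Ptges and Ptgs1 were far lower, at 0.0815, 0.0708 and 0.0405 CPM per kilobase. The ranges over libraries of neighbours in this order overlapped. By group medians Ptges2 had 2.75, 1.89 and 1.88 CPM per kilobase in control, DEX and DEX + RU-486 and Ptgds 0.264, 1.23 and 0.449, whereas the DEX mean per kilobase was higher for Ptgds than for Ptges2, through its 4 DEX libraries above 10 CPM. Ptgds and Ptges2 had counts in every library, with means of 42.8 and 330 counts. Ptgs1 had 0 counts in 12 libraries, Ptgs2 in 12 and Ptges in 11. A count of 0 allows up to 3 counts, or between 0.0715 and 0.291 CPM for the libraries concerned, by counting error alone. With a mean count above 5 as the filter, 3 of the 5 genes were fitted across treatments, Ptgds, Ptgs2 and Ptges2. For comparison, Ptges3, the cytosolic prostaglandin E synthase, which is also a co-chaperone of steroid receptors, had 46.2 CPM per kilobase.

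Ptgds was higher in DEX than in control libraries in each batch when RNA was intact. In batch 1 the control libraries lay between 0.0751 and 0.442 CPM with a median of 0.400. The DEX libraries lay between 1.63 and 11.9 CPM with a median of 1.87. With DEX + RU-486 the range was 0.542 to 2.21 CPM and the median 0.741. Every DEX library was thus above every control library, a pattern that 3.2% of the 20355 tested genes also had in batch 1. Every DEX + RU-486 library was above every control library as well (1.99% of tested genes), while DEX and DEX + RU-486 overlapped. The 4 lower DEX libraries were close together, between 1.63 and 2.05 CPM, and the 2 high ones were library 7 at 11.9 CPM (RIN 6.2) and library 12 at 10.4 CPM (RIN 3.9), the lowest RIN of the group. The high DEX + RU-486 library was library 13, at 2.21 CPM.

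**Figure D1:**
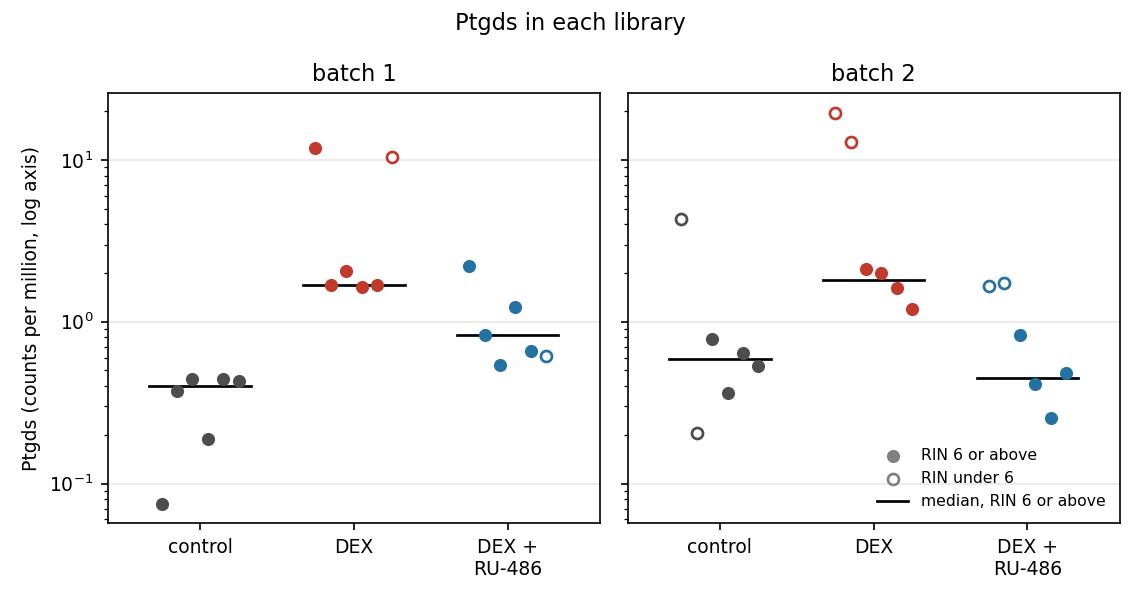
Ptgds in each library in CPM (log axis) by treatment, in batch 1 (left) and batch 2 (right). Filled points are libraries of RIN 6 or above, open points those under 6, and lines are medians of the filled points. The filled DEX points lie above all filled control points in both batches, and the highest point is an open DEX library of batch 2 at 19.5 CPM.

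In batch 2 the 4 intact control libraries had 0.780, 0.363, 0.643 and 0.531 CPM of Ptgds. The 4 intact DEX libraries had 2.13, 2.00, 1.61 and 1.20 CPM. The 4 intact DEX + RU-486 libraries had 0.826, 0.413, 0.253 and 0.484 CPM. All DEX values were above all values of both other groups, which held for 4.47% of tested genes against control and 3.93% against DEX + RU-486, and DEX + RU-486 overlapped with control. Libraries with RIN under 3 were more scattered. In the 2 such control libraries Ptgds stood at 4.34 and 0.207 CPM, in the 2 DEX libraries at 19.5 and 12.9 CPM, and in the 2 DEX + RU-486 libraries at 1.65 and 1.73 CPM. With these libraries included the DEX and control groups of batch 2 overlapped, since control library 19 (RIN 2.7) lay above the intact DEX libraries.

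Over the intact libraries of both batches, Ptgds rested on 3 to 46 counts in controls, 24 to 144 in DEX and 8 to 45 in DEX + RU-486. Every intact DEX library was above every intact control library across both batches, as for 0.108% of tested genes, or 22 of 20355. The members were chosen with this contrast known, so nothing is read from these shares. The intact medians were 0.400 CPM in control, 1.69 in DEX and 0.822 in DEX + RU-486 in batch 1, and 0.587, 1.80 and 0.449 in batch 2. The DEX median was thus similar in both batches, whereas the DEX + RU-486 median lay above control in batch 1 and below it in batch 2.

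On the log2 scale, the edgeR estimate for Ptgds over all 36 libraries with the batch as covariate was 3.11 ± 0.55 (SE) for DEX against control. It was 0.57 ± 0.54 for DEX + RU-486 against control and -2.53 ± 0.54 for DEX + RU-486 against DEX. In the 16 intact libraries of batch 1 the same 3 values were 3.54 ± 0.58, 1.75 ± 0.57 and -1.79 ± 0.58. In the 12 intact libraries of batch 2 they were 1.59 ± 0.41, -0.22 ± 0.42 and -1.81 ± 0.42. DEX was higher than control and than DEX + RU-486 in both batches, and the size against control was larger in batch 1. The difference between batches was not tested. With RIN as a covariate over all libraries the 3 values were 2.19 ± 0.37, 0.25 ± 0.36 and -1.94 ± 0.36.

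Single libraries moved these estimates. Without DEX library 7 the intact batch 1 value for DEX + RU-486 against DEX was -0.70 and that for DEX against control was 2.44. In the fit of all libraries, DEX + RU-486 against control was 1.18 without control library 19 and 0.34 without DEX + RU-486 library 13. In intact batch 2, leaving out each library in turn gave 1.43 to 1.76 for DEX against control and -2.16 to -1.59 for DEX + RU-486 against DEX. The direction of DEX against control and of DEX + RU-486 against DEX was the same without any one library in all 3 sets.

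**Figure D2:**
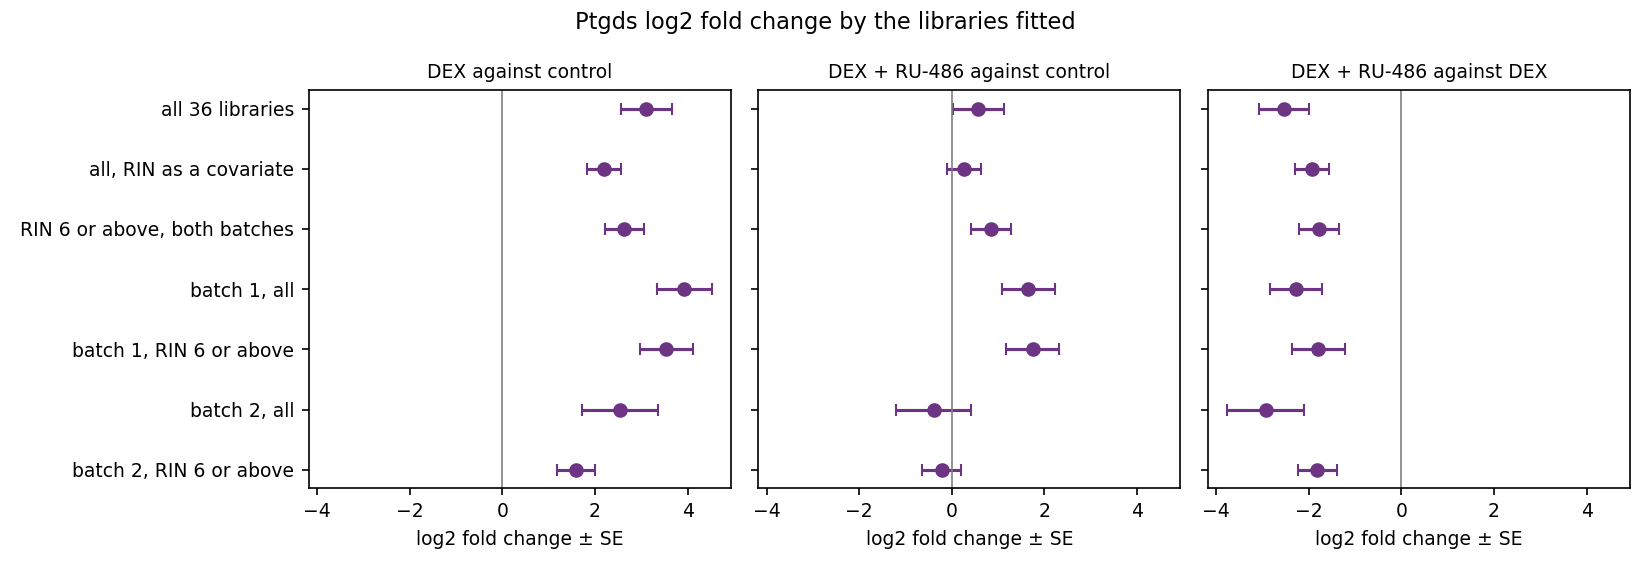
Log2 fold change of Ptgds with its SE (points and bars) in the 3 comparisons, by the libraries fitted. DEX against control is above 0 in all 7 fits, from 1.59 to 3.93, DEX + RU-486 against DEX is below 0 in all 7, and DEX + RU-486 against control is above 0 in batch 1 and near 0 or below in batch 2.

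The cyclooxygenase transcripts were near the lower limit of the count table. Ptgs1, the constitutive cyclooxygenase, ranged in batch 1 from 0 to 6 counts in control (median 3), 0 to 6 in DEX (median 1) and 0 to 5 in DEX + RU-486 (median 1). In batch 2 the ranges were 0 to 17 in control (median 6.5), 0 to 15 in DEX (median 0.5) and 0 to 6 in DEX + RU-486 (median 4.5). The groups overlapped in each batch, and no fold change is given for Ptgs1 because its mean of 3.47 counts was below the filter.

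Ptgs2, the inducible cyclooxygenase and a target of neuronal activity, had 239 counts over the 36 libraries, of which 72 came from DEX library 7, or 30.1%. In batch 1 it lay between 0 and 0.451 CPM in control (median 0.0414), between 0 and 5.93 in DEX (median 0.0902) and between 0 and 0.935 in DEX + RU-486 (median 0). In batch 2 it lay between 0 and 1.86 CPM in control (median 0.151), between 0 and 0.386 in DEX (median 0.321) and between 0 and 0.188 in DEX + RU-486 (median 0.128). The groups overlapped in every set of libraries. Ptgs2 passed the filter with a mean of 6.64 counts, and without DEX library 7 the mean was 4.77, which would not have passed. The log2 estimate for DEX against control was 1.44 ± 1.01 over all libraries, 3.30 ± 1.37 in batch 1 and -0.47 ± 0.99 in batch 2. In intact libraries it was 2.56 ± 0.89 over both batches, 3.56 ± 1.32 in batch 1 and 1.03 ± 0.72 in batch 2, so the direction in batch 2 turned with the degraded libraries. Without DEX library 7 the estimate was 0.10 over all libraries, 0.86 in batch 1 and 1.18 in its intact libraries, and without control library 20 (RIN 1.8, 18 counts) that of batch 2 was 1.10. The same library 7 had the highest Ptgds of batch 1.

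Ptges, the inducible microsomal prostaglandin E synthase, which works with Ptgs2 in inflamed tissue, had 0 counts in 8 of 12 DEX libraries, 1 of 12 control libraries and 2 of 12 DEX + RU-486 libraries. In batch 1 the medians were 2.5 counts in control (range 0 to 4), 0 in DEX (0 to 7) and 2 in DEX + RU-486 (0 to 12). In intact batch 2 libraries the medians were 2.5 counts in control (1 to 4), 0 in DEX (0 to 5) and 3.5 in DEX + RU-486 (1 to 10). The groups overlapped in each set. In batch 1 the DEX libraries were shallower than every control library, and the level that 0 counts allow in them was above the highest control library, 0.126 CPM. No fold change is given, since the mean of 4.5 counts was below the filter.

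Ptges2, the constitutive membrane-associated prostaglandin E synthase, was the most evenly measured member. In batch 1 the control libraries lay between 12.9 and 17.7 CPM (median 15.8), the DEX libraries between 8.45 and 12.3 (median 10.05) and those with DEX + RU-486 from 6.08 to 18.6 (median 8.56). Every DEX library of batch 1 was below every control library, as for 6.66% of tested genes, and the DEX + RU-486 group reached above the controls through library 13 alone. In intact batch 2 libraries control lay at 11.4, 8.65, 9.39 and 12.8 CPM. The DEX values there were 7.22, 4.58, 8.16 and 9.79 CPM and the DEX + RU-486 values 9.87, 8.59, 9.18 and 10.7 CPM, so the groups overlapped. The 6 libraries with RIN under 3 lay between 13.2 and 15.6 CPM, above every intact library of batch 2.

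The log2 estimate of Ptges2 for DEX against control was -0.46 ± 0.17 over all libraries, -0.56 ± 0.20 in intact batch 1 and -0.49 ± 0.19 in intact batch 2. For DEX + RU-486 against control it was -0.35 ± 0.17, -0.54 ± 0.19 and -0.12 ± 0.19 in the same sets, and for DEX + RU-486 against DEX 0.11 ± 0.17, 0.02 ± 0.21 and 0.37 ± 0.19. With the degraded libraries of batch 2 included, the DEX value of that batch was -0.25 ± 0.25. In intact DEX libraries the Ptges2 estimate was thus below control in both batches, and in DEX + RU-486 it stood near DEX in batch 1 and near control in batch 2.

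**Figure D3:**
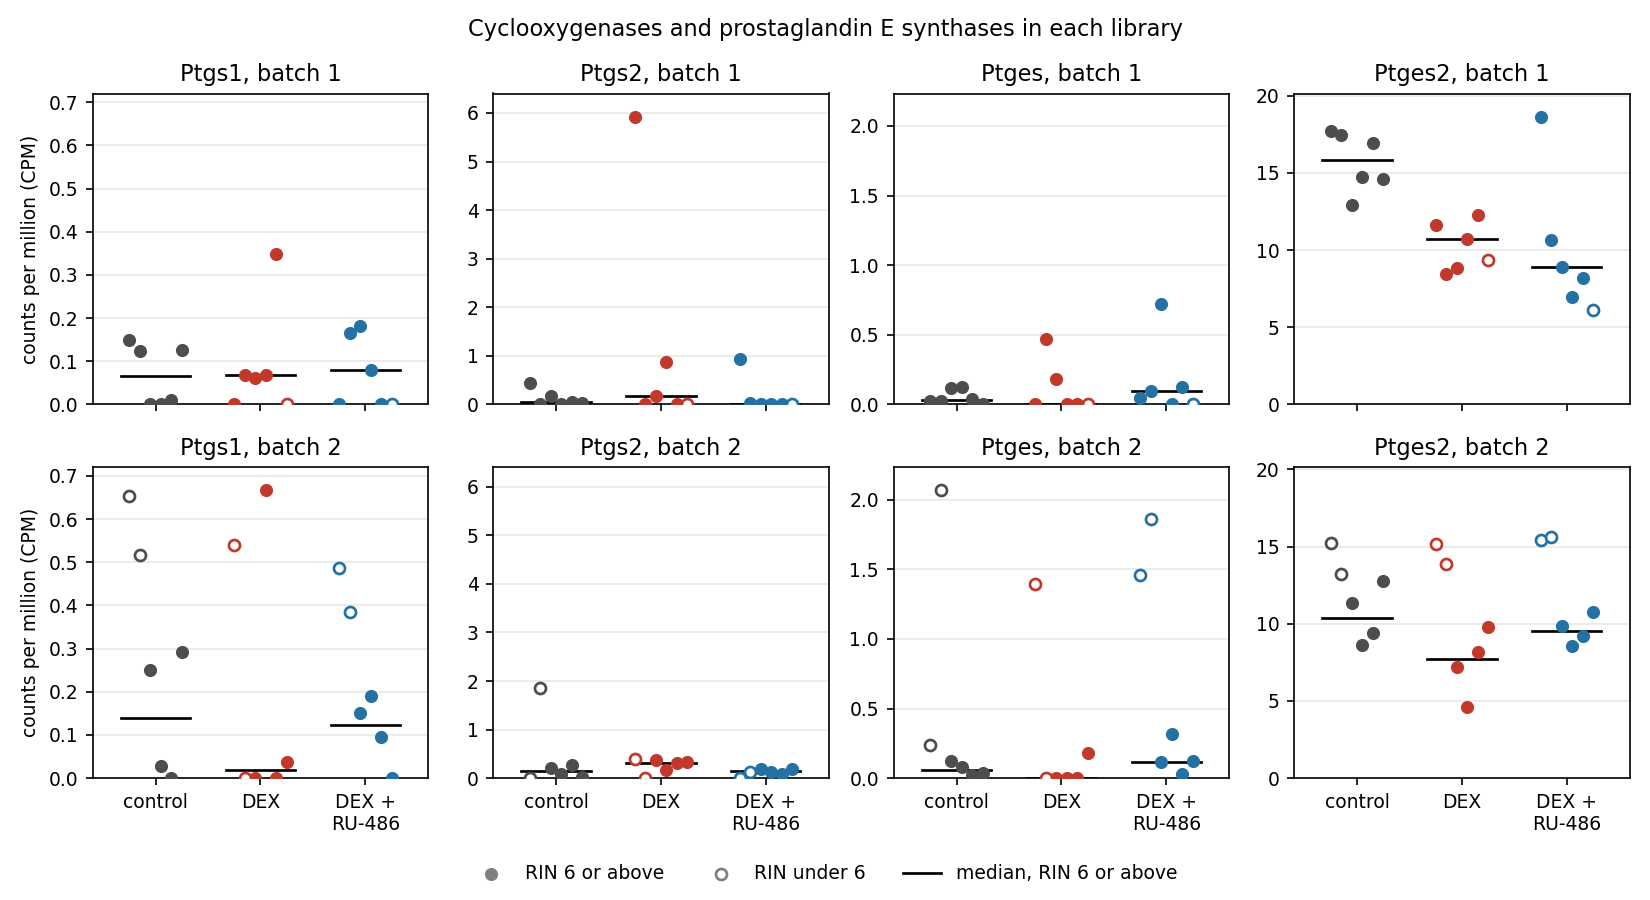
CPM (linear axis from 0) of Ptgs1, Ptgs2, Ptges and Ptges2 in each library by treatment, with batch 1 in the upper row and batch 2 in the lower row. Filled points are libraries of RIN 6 or above, open points those under 6, lines are medians of the filled points, and only Ptges2 has a batch in which DEX and control do not overlap.

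The rest of the pathway was read from 31 other genes of prostaglandin synthesis, reception and breakdown, of which 25 passed the filter. This list was also chosen with earlier results of these data known. In the fit of all libraries, 0 of the 25 passed an adjusted p under 0.05 in any comparison by edgeR's quasi-likelihood test, with 0 by DESeq2 as well. Over all genes tested edgeR called 0.0246% for DEX against control and 0 for both other comparisons. DESeq2 called 2.25% of all genes for DEX against control, 0.594% for DEX + RU-486 against control and 0.00983% for DEX + RU-486 against DEX. At an unadjusted p under 0.05 edgeR had 4, 4 and 0 of the pathway genes for DEX against control, DEX + RU-486 against control and DEX + RU-486 against DEX, beside 3446, 2203 and 545 of all 20355 genes. The median log2 fold change of the 25 was -0.06, -0.03 and 0.05, beside medians of -0.01, 0.02 and 0.02 over all tested genes. Their log2 fold changes for DEX against control ranged from -0.93 to 1.16.

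Among the enzymes that release arachidonic acid, Pla2g4e, a cytosolic phospholipase A2 and the member of that list with the highest CPM, had a log2 fold change of -0.09 ± 0.15 for DEX against control over all libraries (edgeR adjusted p = 0.814). None of the 6 tested genes of this list was called there or in the intact libraries. Anxa1, the glucocorticoid-induced inhibitor of phospholipase A2, was low at 0.286 CPM and had -0.23 ± 0.55 (edgeR adjusted p = 0.881). Among the other terminal synthases, Ptges3 had -0.20 ± 0.09 (edgeR adjusted p = 0.235) over all libraries. In intact batch 1 it fell by 0.36 on the log2 scale with DEX (edgeR adjusted p = 0.0127). Cbr1, a carbonyl reductase that acts on prostaglandins and the gene of transport and breakdown with the highest CPM, had 0.06 ± 0.12 over all libraries (edgeR adjusted p = 0.868).

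Intact libraries gave more calls. Over both batches, 2 of 22 tested pathway genes fell with DEX and 0 rose, where 20% of all tested genes were called, 12% lower and 8.06% higher. They were Ptger3, a receptor for prostaglandin E2, at -0.78 ± 0.18 (edgeR adjusted p = 0.00344), and Akr1b3, an aldose reductase that can make prostaglandin F2α, at -0.29 ± 0.10 (edgeR adjusted p = 0.0312). Akr1b3 fell with DEX + RU-486 against control too, the only one of the 22 (9.09% of all genes), at -0.33 (edgeR adjusted p = 0.0266). In intact batch 1, 2 pathway genes fell with DEX (Ptger3 and Ptges3) and Ptgir, the prostacyclin receptor, rose, out of 21 (20.2% of all genes). In degraded against intact RNA of batch 2, 11 of 26 pathway genes were higher, 6 of the 8 receptors among them, and 3 lower (30.5% of all genes were higher). Low genes passed the filter there through the degraded libraries, in which they are high. This tally is therefore partly set by the filter, and nothing is read from it. The part of RNA integrity in the batch 1 calls was not tested. Of 23 tested in intact batch 2, 0 were called for DEX against control (edgeR, 1 at an unadjusted p under 0.05, with 0.562% of all genes called). Akr1b3, Ptgir and Zadh2 (below) were singled out after their values were seen. DESeq2 was not run on the intact libraries.

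Ptger3 lay between 20.4 and 33.6 CPM in the controls of batch 1 and between 8.90 and 15.3 CPM in its 5 intact DEX libraries, with no overlap, as for 7.54% of tested genes. Its range in intact batch 2 was 8.55 to 10.7 CPM in control and 4.60 to 10.5 CPM in DEX, which overlapped. Over all libraries its log2 fold change was -0.77 ± 0.26 with an edgeR adjusted p of 0.121. Ptgir had 1 to 9 counts per control library of batch 1 and 1 to 16 per DEX library, and its estimate in intact batch 1 was 2.19 ± 0.71 (edgeR adjusted p = 0.0344). In DEX + RU-486 against control of intact batch 1, Akr1b3 and Ptger3 fell by 0.56 and 0.80 on the log2 scale and Ptgir rose by 2.87 (14.7% of all genes called). In DEX + RU-486 against DEX, Zadh2, a prostaglandin reductase, was the only pathway gene called in intact batch 2, at -0.75 ± 0.18 (edgeR adjusted p = 0.0445, with 1.52% of all genes called). No pathway gene was called in intact batch 1, where 0 of all 19196 genes were.

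**Figure D4:**
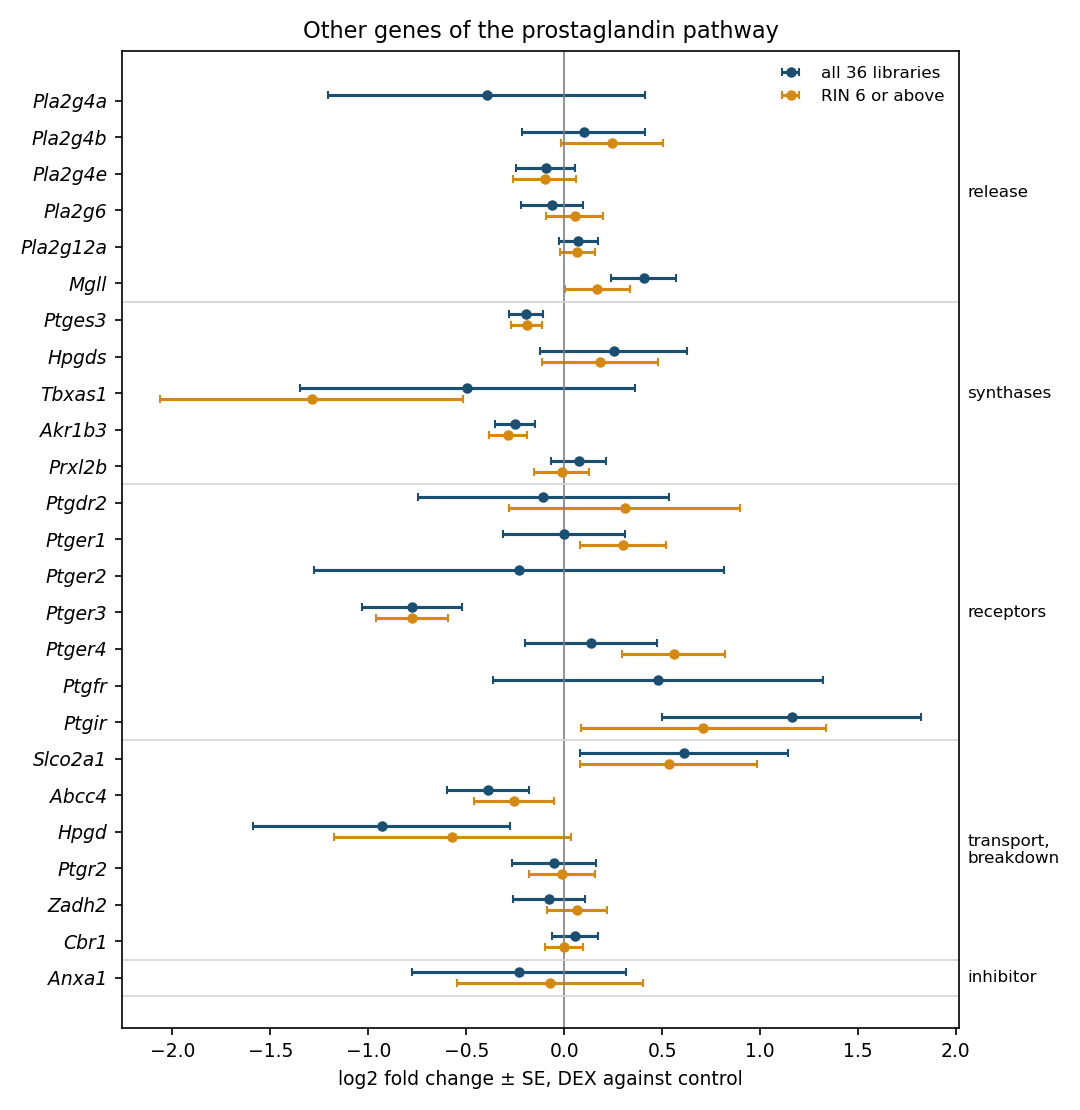
Log2 fold change with its SE for DEX against control of the pathway genes that passed the filter, grouped by role, over all 36 libraries (blue) and over libraries of RIN 6 or above (orange). Most points lie within 1 of 0, and Ptger3 is below 0 in both sets with a short error bar.

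Glucocorticoid target genes were read as a check of the treatment. Fkbp5, Tsc22d3, Per1, Sgk1 and Zbtb16 had log2 fold changes of 0.03, 0.26, 0.40, 0.05 and 0.57 for DEX against control over all libraries. By edgeR 0 of the 5 were called (0.0246% of all genes), with 1 at an unadjusted p under 0.05, and DESeq2 called 0 (2.25% of all genes). In intact libraries Per1 (0.45, edgeR adjusted p = 0.0373) and Zbtb16 (0.70, edgeR adjusted p = 0.0306) rose, where 20% of all genes were called and 8.06% rose. Fkbp5, Tsc22d3 and Sgk1 were at -0.10, 0.31 and 0.02 there (edgeR adjusted p = 0.577, 0.212 and 0.95). In intact batch 1 Per1 and Tsc22d3 were called, at 0.87 and 0.72, where 20.2% of all genes were called. In intact batch 2 none of the 5 was (edgeR, 1 at an unadjusted p under 0.05), where 0.562% of all genes were called. These genes therefore did not separate DEX from control over all libraries, and the treatment labels are taken as given.

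Ptgds was then set beside transcripts of the cell types that are known to make it. In these bulk libraries, fewer cells of a type and less RNA per cell cannot be told apart. Neuron markers summed to between 2696 and 4598 CPM in intact libraries, and the 11 oligodendrocyte markers to between 73.8 and 1227 CPM. The 12 leptomeningeal and 7 choroid plexus markers were low, with 6 and 4 that passed the filter and sums of 1.15 to 16.99 CPM and 0.541 to 3.01 CPM in intact libraries. Of the leptomeningeal genes, Igf2, Foxc1 and Col1a1 had counts in all 36 libraries, and each of the other 9 had 0 counts in 8 to 29 libraries. The choroid plexus genes had 0 counts in between 3 libraries (Kl) and 25, and Ttr, the best known of them, in 23.

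In intact libraries, oligodendrocyte markers moved with DEX as Ptgds did. The cell type lists were chosen with earlier results of these data known. Their calls and p-values below are therefore a description and no independent support. In batch 1 their sum lay between 73.8 and 329 CPM in control (median 131), between 599 and 954 in intact DEX libraries (median 700) and between 256 and 792 in intact DEX + RU-486 libraries (median 477). In intact batch 2 it lay between 420 and 561 CPM in control (median 485), between 734 and 1227 in DEX (median 905) and between 142 and 413 in DEX + RU-486 (median 286). The intact DEX sums were above all intact control sums in both batches, and intact DEX + RU-486 was below intact control in batch 2. Libraries of batch 2 with RIN under 3 differed from this. Their sums were 2680 and 497 CPM in control (libraries 19 and 20), 1258 and 639 in DEX and 718 and 1156 in DEX + RU-486. Control library 19 was thus above every DEX library of its batch. Over all intact libraries 9 of 9 tested oligodendrocyte genes rose with DEX by edgeR, where 8.06% of all tested genes rose, and their median log2 fold change was 1.36. The myelin genes Mbp and Mobp rose by 1.36 and 2.50 (edgeR adjusted p = 0.0018 and 7.52e-05). Within batches, 9 of 9 rose in intact batch 1 (median 2.05), where RIN and depth follow treatment and 1755 of all 19196 tested genes rose. In intact batch 2, 2 of 9 rose (median 0.73, 6 at an unadjusted p under 0.05 by edgeR). Of all 20652 genes tested there, 67 rose and 3521 had an unadjusted p under 0.05. In the fit of all 36 libraries edgeR called 0 of 11 (0.0246% of all genes), with 6 at an unadjusted p under 0.05 (3446 of all 20355 genes). DESeq2 called 3 of 11 (2.25% of all genes).

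Other lists, chosen with the same prior knowledge, moved as well, and their calls are a description too. In the same intact comparison 6 of 8 oligodendrocyte precursor genes and 6 of 11 astrocyte genes rose, 5 of 10 neuron genes fell (12% of all tested genes), and 0 microglial, leptomeningeal, choroid plexus or vascular genes were called. In intact batch 1 the precursor, astrocyte and neuron lists had 6, 5 and 6 calls in the same directions, where 1755 of all 19196 genes rose and 2121 fell. In intact batch 2 they had 0, where 0.562% of all genes were called. By edgeR 1, 3 and 3 of their genes had an unadjusted p under 0.05 there, beside 3521 of all 20652 genes. Of the 3 genes with the highest CPM in each list, the precursor genes Sox10, Olig1 and Bcas1 rose by 1.22, 1.01 and 0.99 on the log2 scale, the astrocyte genes Sox9 and Slc1a3 rose by 0.62 and 0.41 while Slc1a2 was at 0.08 and not called, and the neuron genes Tubb3 and Stmn2 fell by 0.57 and 0.38 while Map2 was at -0.15 and not called. In the lists without calls the genes named by this rule (Cx3cr1 and Csf1r, Igf2, Foxc1 and Col1a1, Kl, Folr1 and Aqp1, and Rgs5, Pecam1 and Flt1) lay between -0.61 for Csf1r and 1.17 for Foxc1 (edgeR adjusted p = 0.584 and 0.0812). In DEX + RU-486 against DEX, 6 of 9 oligodendrocyte genes fell in intact batch 2 (0.775% of all tested genes), among them Mobp at -2.80 and Mbp at -1.47. In intact batch 1, 0 of 9 were called, as were 0 of all 19196 genes. By edgeR 4 of the 9 had an unadjusted p under 0.05 there, beside 1130 of all genes. In degraded against intact RNA of batch 2, 8 of 11 oligodendrocyte, 7 of 8 precursor and 7 of 11 astrocyte genes were higher by edgeR, where 30.5% of all tested genes were. The filter there included the degraded libraries, and 11 oligodendrocyte genes passed it, against 9 in intact libraries. These counts are therefore partly set by the filter, and nothing is read from them. The part of RNA integrity in the DEX differences of these lists was not tested.

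In intact libraries, the Ptgds medians of DEX and control differed less relative to the oligodendrocyte sum than in CPM. Per 1000 CPM of oligodendrocyte markers, intact batch 1 libraries had 1.02 to 3.97 CPM of Ptgds in control (median 1.58), 2.14 to 16.3 in DEX (median 2.41) and 0.685 to 6.79 in DEX + RU-486 (median 2.60). The ranges in intact batch 2 were 0.713 to 1.40 in control (median 1.33), 1.31 to 2.90 in DEX (median 1.76) and 1.00 to 2.44 in DEX + RU-486 (median 2.00). All 3 groups overlapped in both batches. The part of oligodendrocyte content in the Ptgds difference was not tested. The 2 DEX libraries of batch 2 with RIN under 3 had 20.1 and 15.5 CPM of Ptgds per 1000 CPM of these markers, against 1.62 and 0.416 in the 2 control libraries.

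**Figure D5:**
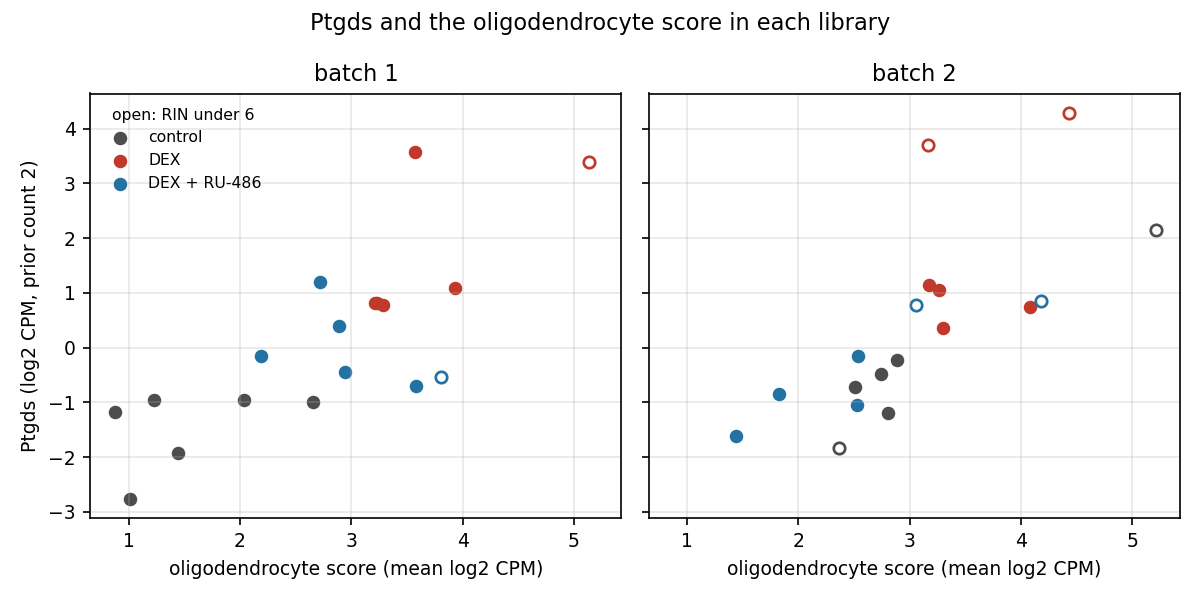
Ptgds (log2 CPM with a prior count of 2) against the oligodendrocyte score, the mean log2 CPM of the tested oligodendrocyte genes, for each library of batch 1 (left) and batch 2 (right). Colours give the treatment and open points RIN under 6. Control points lie to the lower left in batch 1, and with group means kept Pearson r is 0.77 in batch 1 and 0.80 in the intact libraries of batch 2.

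Across libraries, Ptgds and the oligodendrocyte score had Pearson r of 0.77 in the 18 libraries of batch 1, 0.74 in its 16 intact libraries and 0.80 in the 12 intact libraries of batch 2. These values hold the differences between treatments. With group means removed r was 0.34, 0.16 and 0.38 in the same sets, and without the 2 libraries farthest from the median score it was 0.12, 0.05 and 0.16. With group means kept the precursor score had 0.74, 0.78 and 0.67 and the astrocyte score 0.57, 0.59 and 0.65. With group means removed the precursor score had 0.50, 0.55 and 0.56, though leaving out the 2 farthest libraries gave 0.04, 0.29 and 0.28. The astrocyte score then had 0.30, 0.25 and 0.24, and 0.25, 0.39 and -0.26 without the 2 farthest libraries, so its sign in intact batch 2 rests on them. The neuron score had 0.47, 0.67 and 0.06, and 0.45, 0.66 and 0.33 without them, but -0.33, -0.24 and -0.15 with group means kept. The leptomeningeal score had -0.34, -0.41 and -0.19, and -0.25, -0.27 and -0.11 without them, whereas with group means kept it had 0.01, 0.02 and -0.19. The choroid plexus score had -0.32, -0.26 and -0.34, and -0.23, 0.19 and -0.46 without the 2 farthest libraries, so its sign in intact batch 1 rests on them. The microglial score had -0.29, -0.02 and 0.09, and -0.02, -0.24 and 0.30 without the 2 farthest libraries. With group means kept it had -0.15, 0.16 and -0.31. The vascular score had 0.07, -0.12 and 0.01, and -0.12, -0.31 and -0.09 without the 2 farthest libraries. With group means kept it had 0.41, 0.34 and -0.05. The points share depth and RNA integrity, Ptgds rests on few counts, and these r are given without a test.

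RNA integrity and depth moved with Ptgds too. With group means kept, r with RIN was -0.72 in batch 1, -0.76 in its intact libraries and -0.59 in the intact libraries of batch 2, and with group means removed it was -0.47, -0.38 and -0.29. For log2 depth the values were -0.51, -0.61 and -0.23 with group means kept and 0.38, 0.22 and -0.20 without them. The part of RNA integrity and depth in the treatment difference of Ptgds was not tested beyond the fit with RIN as a covariate given above.

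Degraded and intact RNA were compared in batch 2, where 2 libraries of each treatment had RIN under 3, with treatment as covariate. Over all genes 56.2% of the 21682 tested were called and 30.5% were called higher in the degraded libraries. Ptgds had a log2 difference of 2.41 ± 0.36, which is a description with no test, since its degraded DEX libraries also enter the DEX difference for which it was chosen. Ptges2 was higher by 0.67 ± 0.14 (edgeR adjusted p = 0.000341). Ptgs2 differed by 0.64 ± 0.88 (edgeR adjusted p = 0.557), and Ptgs1 was not tested. The Ptgds value of 2.41 stands beside 2.63 ± 0.43 for DEX against control in the intact libraries of both batches. Individual degraded libraries did not move alike, since control library 20 (RIN 1.8) had 0.207 CPM, below every intact control library of that batch.

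Ptges passed the filter in batch 2 only through the degraded libraries, so no test of it is given. They held 24 of its 34 counts in control, 18 of 23 in DEX and 44 of 62 in DEX + RU-486. Among the cell type markers 43 of 64 tested were higher in the degraded libraries and 7 lower, where 6622 and 5573 of all 21682 genes were. The neuron list had 5 higher and 4 lower of 10, and the vascular list 7 higher and 0 lower of 8. Low markers passed the filter through the degraded libraries, in which they are high. These tallies are therefore partly set by the filter, and nothing is read from them. The myelin genes Mbp and Mobp were higher by 1.31 ± 0.28 and 2.42 ± 0.32 (edgeR adjusted p = 0.000494 and 1.7e-06).

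The genes most like Ptgds were those with the highest value of the smaller of 2 Pearson r with Ptgds, over the 16 intact libraries of batch 1 and the 12 of batch 2, with group means removed, among 14370 genes with a mean of at least 1 CPM. They were Bmf at 0.786, Ablim3 at 0.759, Tpm4 at 0.736, Zfp804a at 0.711 and Nrp2 at 0.699, followed by Hmga1, Gng7, Afap1, Rph3a and Osbpl3 at 0.683 to 0.648. No oligodendrocyte or precursor marker was among these 10. None of the 10 was called for DEX against control over all libraries by edgeR, where Bmf had the largest log2 fold change, 0.59 (edgeR adjusted p = 0.247). Of the other members, Ptgs2 had r of 0.57 and 0.46 with Ptgds in the 2 sets and Ptges2 0.30 and -0.08. The values are the extremes of many genes over few libraries and are given as a description.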

How the data were processed

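The deposited data are 1 table of raw counts, with 1 column of whole numbers for each of 36 libraries and no normalization by the authors. The reads were aligned with HISAT2 2.1.0 and counted with Subread 1.5.0-p2 on GRCm38, and a second alignment to a composite genome with the spliced ribosomal protein mRNAs is described. Which alignment the table holds, and the annotation release, are not given in the sources used here. The labels name poly(A) selection, whereas the methods describe a total RNA library. The table has 55492 entries, of which 5 transgene names (58 counts, 6.22e-06 percent) were left out, and symbols were taken from GENCODE M21 (55227 identifiers matched).

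Groups, batches and RIN came from the labels. Genes with a mean above 5 counts (20355) were fitted in edgeR 4.0.16 (R 4.3.3) by the quasi-likelihood test with TMM factors, all 3 groups and the batch as covariate, and p-values were adjusted over the tested genes by Benjamini-Hochberg, with calls made under 0.05. The standard error is the log2 fold change divided by the square root of F. CPM use TMM-scaled totals, log2 CPM a prior count of 2, and a cell type score is the mean log2 CPM of a list's tested genes. Depth was between 12.1 and 82.4 M counts (M, mega). Limits from a count of 0 cover counting error only, whereas standard errors include the spread between libraries. DESeq2 1.42.0, RLE size factors, no filter, RIN as a covariate, libraries of RIN 6 or above, each batch alone, no batch covariate and leaving out single libraries were alternatives. The fits of intact libraries within a batch, and the further leave-one-out fits, were chosen after seeing the data.

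The members and lists were chosen with earlier results of these data known. The genes named were the members, pathway genes called in the fit of all libraries, the gene with the most CPM of each pathway list, 5 glucocorticoid targets, the 3 genes with the most CPM of each cell type list (2 of them are not reported here), and the 10 genes most like Ptgds. Ttr was named outside this rule. The fits were tested on simulated counts of 19929 genes. These were drawn from the mean profile of all libraries scaled to each depth, without differences in batch, RNA integrity or composition. The shares of calls below describe that setting only. For DEX against control edgeR called 58 of 100 genes changed 2-fold and 77 of 100 changed 4-fold, and 2.17% of its calls were unchanged genes. DESeq2 called 64 and 84, and 10.3% of its calls were unchanged genes. For degraded against intact RNA, on 19843 genes, edgeR called 44 and 67, with 5.93% unchanged genes among its calls.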

Additional observations from a re-analysis of the deposited data

Results flagged for a closer look

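In 9 of 30 sets of 6 libraries (each member in each treatment and batch), 1 library stood apart from the other 5 by Dixon's criterion at the 95% level. Chance would do this in about 5% of sets if values were normally distributed. CPM from low counts need not be, so the 9 sets are not read against that share. All 9 were the highest library of their set, and apart from those of Ptgds, Ptges2 and Ptgs2 in DEX library 7 the values rest on 20 counts or fewer.

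Ptgds stood at 4.34 CPM (73 counts) in control library 19 of batch 2, RIN 2.7, where the next control library had 0.780 CPM. Ptgs1 stood at 0.349 CPM (6 counts) in DEX library 11 of batch 1, with 0.0680 CPM next.

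Ptgs2 stood at 5.93 CPM (72 counts) in DEX library 7 of batch 1, with 0.884 CPM next, at 0.935 CPM (19 counts) in DEX + RU-486 library 13 of batch 1, with 0.0329 CPM next, and at 1.86 CPM (18 counts) in control library 20 of batch 2, RIN 1.8, with 0.262 CPM next.

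Ptges stood at 0.723 CPM (12 counts) in DEX + RU-486 library 15 of batch 1, at 2.07 CPM (20 counts) in control library 20 of batch 2 and at 1.39 CPM (18 counts) in DEX library 25 of batch 2, RIN 2.2, with 0.124, 0.238 and 0.182 CPM next. Ptges2 stood at 18.6 CPM (379 counts) in DEX + RU-486 library 13 of batch 1, with 10.6 CPM next.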

How the results depend on the processing

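The direction of Ptgds for DEX against control and for DEX + RU-486 against DEX was the same in each alternative run, with single libraries left out giving 1.43 to 3.76 and -2.79 to -0.70. For DEX + RU-486 against control it ran from -0.57 to 1.90. The SD of Ptgds log2 CPM within group and batch was 1.11. Alternatives were set against the fit of all libraries, and each leave-one-out fit against the fit of its own set with no library left out. The values that moved by more than this SD came from the intact libraries of a batch. They were 1.59 for DEX against control in batch 2 and 1.75 for DEX + RU-486 against control in batch 1. Ptgs2 for DEX against control, 1.44 over all libraries, was 3.30 in batch 1, 3.56 in its intact libraries, -0.47 in batch 2, 1.03 in its intact libraries and 2.56 over all intact libraries. It was 0.10 without DEX library 7 (1.13 over intact libraries) and 2.31 without control library 20. In the degraded comparison Ptges2 was called higher and Ptgds was above 0 in every alternative, and Ptgs2 had no value there without control library 20.

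Counts of calls depended on the libraries. For DEX against control, where all libraries gave 5 genes, 0 pathway genes and 0 markers, DESeq2 called 457 genes and 6 markers, RIN as a covariate 455 and 6, libraries of RIN 6 or above 4010 with 2 pathway genes and 26 markers, batch 1 3773 with 3 and 28, its intact libraries 3876 with 3 and 26, and intact batch 2 116 genes with 2 markers. Batch 2 alone, no batch covariate, and the fit without control library 24 called 0 genes. For DEX + RU-486 against control, where all libraries gave 0 (edgeR, 2203 genes at an unadjusted p under 0.05), DESeq2 called 121 genes, RIN as a covariate 155, RIN 6 or above 1819 with 1 pathway gene and 5 markers, batch 1 3145 with 4 and 23, its intact libraries 2821 with 3 and 21, and intact batch 2 1 gene. For DEX + RU-486 against DEX, where all libraries gave 0 (edgeR, 545 at an unadjusted p under 0.05), DESeq2 called 2 genes and intact batch 2 314 with 1 pathway gene and 8 markers. Degraded against intact RNA called 12195 genes, 21169 without the filter, and 11134 to 12360 with a library left out. The cause of these differences was not tested. No paired analysis was possible because the labels number the libraries 1 to 36 and no number is shared between groups. Low counts limit Ptgs1, Ptgs2 and Ptges, and the Ptgds controls rest on 3 to 46 intact counts.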
